A study of Homo sapiens with 60 samples.

Results

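The 9 genes described here encode plasma membrane carriers, which move amino acids into and out of the cell, or a part of them. SLC3A2 encodes a heavy chain that some carriers need, and all 9 genes are called carriers here for short. They were taken by name from a list, which was chosen with earlier results of these data known. All 9 symbols were found among the 60675 gene IDs of the count table. All 9 also passed the filter on low counts that left 16982 genes to test. RNA was sequenced from HepG2 cells, a long-established line from a human liver cancer, 24 h after an ethanol extract of 1 of 4 herbs or 4 herbal decoctions, or after vehicle. Vehicle was DMSO, at 0.1% in the sample labels and 2% in the design text, and had 3 libraries. Polygalae Radix was given at 250, 50 and 10 ug/mL and Aucklandiae Radix at 280, 56 and 11.2 ug/mL, with 2 libraries per dose. There were 3 libraries for each of the doses 500, 100 and 20 ug/mL of Menthae Herba, of Saposhnikoviae Radix and of the decoctions Guibi-tang and Saengmaek-san. The decoctions Soyo-san and Okbyeongpung-san were given at the same 3 doses, with 2 libraries and 1 library per dose. The doses are called high, medium and low. Per the design text, the high dose was either 500 ug/mL or, where that lay lower, an inhibitory concentration of the extract.

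Amino acid carriers work in groups. SLC3A2, the CD98 heavy chain, is not a carrier itself but brings light chains such as SLC7A5 (LAT1) and SLC7A11 (xCT) to the cell surface. SLC7A5 exchanges leucine and other large neutral amino acids for intracellular glutamine, while SLC43A1 (LAT3) lets leucine and its relatives cross without a heavy chain. Glutamine, alanine and serine enter with sodium through SLC38A1 and SLC38A2 (SNAT1 and SNAT2) and are exchanged by SLC1A5 and SLC1A4 (ASCT2 and ASCT1). SLC7A1 (CAT1) carries arginine and lysine, and SLC6A9 (GlyT1) carries glycine. When amino acids run short, the factor ATF4 is known to raise many of these genes through short promoter elements, and leucine entering through these carriers is one of the signals that switch on the growth kinase mTORC1.

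The libraries held 17.5 M to 38.9 M counts, with a median of 23.7 M. The hepatocyte markers on a fixed list were detected in every library, for instance ALB at 3650 CPM or more, where CPM is counts scaled for depth, per 1 M counts. Of the markers of other cell types, HBB, MS4A1 and DCN were at 0 in all 60 libraries and PTPRC, which defines leukocytes, in 57. Others were above 0 in every library, among them LYZ (627 to 1650 CPM), VIL1 (78.7 to 353), LGR5 (18.0 to 169), CD74 (18.7 to 114), ACTA2 (8.47 to 57.1), PDGFRB (4.89 to 17.1) and PECAM1 (1.80 to 6.36). The 2 extracts of a set shared a set label, and vehicle had a label of its own, so in any comparison with vehicle the set cannot be told apart from the treatment. Each high dose was therefore compared first with the low dose of its own extract. Within bulk RNA, a change in the share of one kind of cell cannot be told apart from a change in RNA per cell. No label says whether replicates came from separate cultures, and p-values measure no more than library-to-library spread, which may be technical. One library stood apart for these genes: replicate 1 of the high dose of Menthae Herba was the highest of its 3 libraries for 9 of 9 carriers, against 35.9% of all tested genes. The carriers' results that rest on it are given with and without it.

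The element through which ATF4 and its C/EBP partners are known to act has the core letters TGATGNAA. It was looked for on both strands in windows from 250 bases before to 50 bases after each gene's start, taken from RefSeq on GRCh38.p14. Every carrier had at least 1 window and together they had 16. The letters were found in 5 of the 9 carriers, and in 4.46% of 27305 genes and 3.62% of 35116 windows. The 5 matches are shown because the carriers that hold them did not move together: SLC3A2 rose and SLC1A4 fell with the same extract. Capitals mark the 8 matching bases, on the gene's strand, 5′ to 3′. In SLC3A2 and SLC1A4 the core lies on the opposite strand, so its reverse complement is seen.
SLC3A2: gtaatgtgcaggactccTTACATCAgctcc
SLC7A1: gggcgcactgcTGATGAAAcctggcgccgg
SLC1A5: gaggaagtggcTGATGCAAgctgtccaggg
SLC1A4: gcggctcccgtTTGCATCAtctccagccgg
SLC38A1: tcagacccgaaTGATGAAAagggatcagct
The 30-base stretches lie at chr11:62881719-62881748 (plus strand) for SLC3A2, chr13:29595663-29595692 (minus strand) for SLC7A1 and chr19:46784893-46784922 (minus strand) for SLC1A5. Those of SLC1A4 and SLC38A1 lie at chr2:64989381-64989410 (plus strand) and chr12:46266502-46266531 (minus strand). The match of SLC7A1 starts 7 bases after the start of the transcript, in its only window. The match of SLC1A4 starts 7 bases, that of SLC38A1 4 bases and that of SLC1A5 97 bases before the start of the window's transcript. In SLC3A2 it starts 37 bases after the start in 1 of 3 windows. The matches of SLC1A4 and SLC38A1 were likewise in 1 of 2 windows each, and that of SLC1A5 in 1 of 3. The matched windows of SLC3A2, SLC1A4, SLC38A1 and SLC1A5 lie inside the span of the gene. SLC7A5, SLC38A2, SLC6A9 and SLC43A1 do not have these letters in the windows searched. The E-box CACGTG was found in windows of 3 carriers (8.77% of all genes) and the antioxidant response element letters TGACNNNGC in windows of 4 (16.1% of all genes). A match of letters is a description and not a bound site.

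Per length of summed exons, SLC7A5 was the most abundant of the 9 carriers in vehicle, with a mean of 201 CPM per kilobase. SLC1A5 and SLC38A2 followed with 86.4 and 76.2 CPM per kilobase. SLC3A2 had 33.0, SLC7A1 23.5, SLC43A1 22.3, SLC38A1 17.8 and SLC1A4 14.5 CPM per kilobase, and SLC6A9 was the least abundant with 4.30. This order did not hold at every dose. At the high dose of Aucklandiae Radix SLC38A2 came first with 173 CPM per kilobase, ahead of SLC7A5 with 160, and SLC3A2 reached 124. At the high dose of Polygalae Radix SLC38A2, with 144, again stood above SLC7A5, with 126. Levels of SLC7A1, SLC43A1 and SLC38A1 lay close together in vehicle and their order is not read further.

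**Figure D1:**
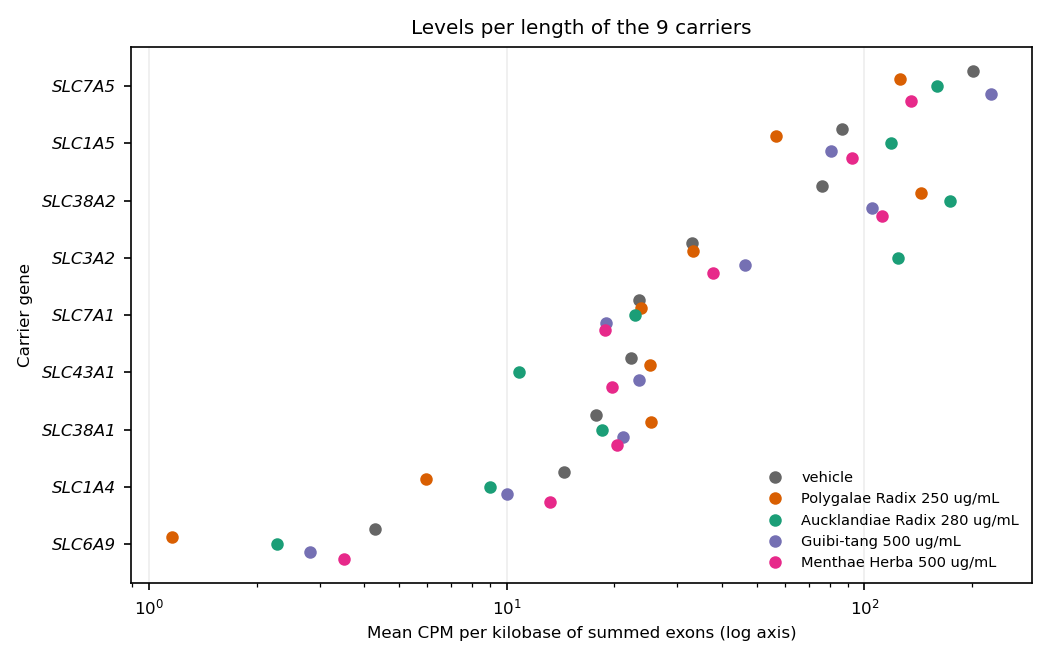
Mean CPM per kilobase of summed exons (log axis) of the 9 carriers in vehicle (n = 3) and at the high dose of Polygalae Radix and Aucklandiae Radix (n = 2 each), Guibi-tang and Menthae Herba (n = 3 each). Points of a gene are spread vertically only to keep them apart; SLC3A2 moved from 33.0 in vehicle to 124 with Aucklandiae Radix, and SLC6A9 from 4.30 to 1.16 with Polygalae Radix.

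Over the means of the 25 groups SLC3A2 spanned the widest range of the 9, from 171 CPM in vehicle to 645 CPM at the high dose of Aucklandiae Radix, a ratio of 3.77. SLC6A9 spanned a ratio of 3.72, from 5.97 CPM at the high dose of Polygalae Radix to 22.2 CPM in vehicle. SLC1A4 spanned 2.45, SLC43A1 2.32, SLC38A2 2.27, SLC1A5 2.10 and SLC7A5 1.80. SLC38A1, with 1.51, and SLC7A1, with 1.36, spanned the least. For 5 carriers the lowest group mean was at a high dose of Polygalae Radix or Aucklandiae Radix, namely SLC7A5, SLC1A5, SLC1A4 and SLC6A9 with the former and SLC43A1 with the latter.

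**Figure D2:**
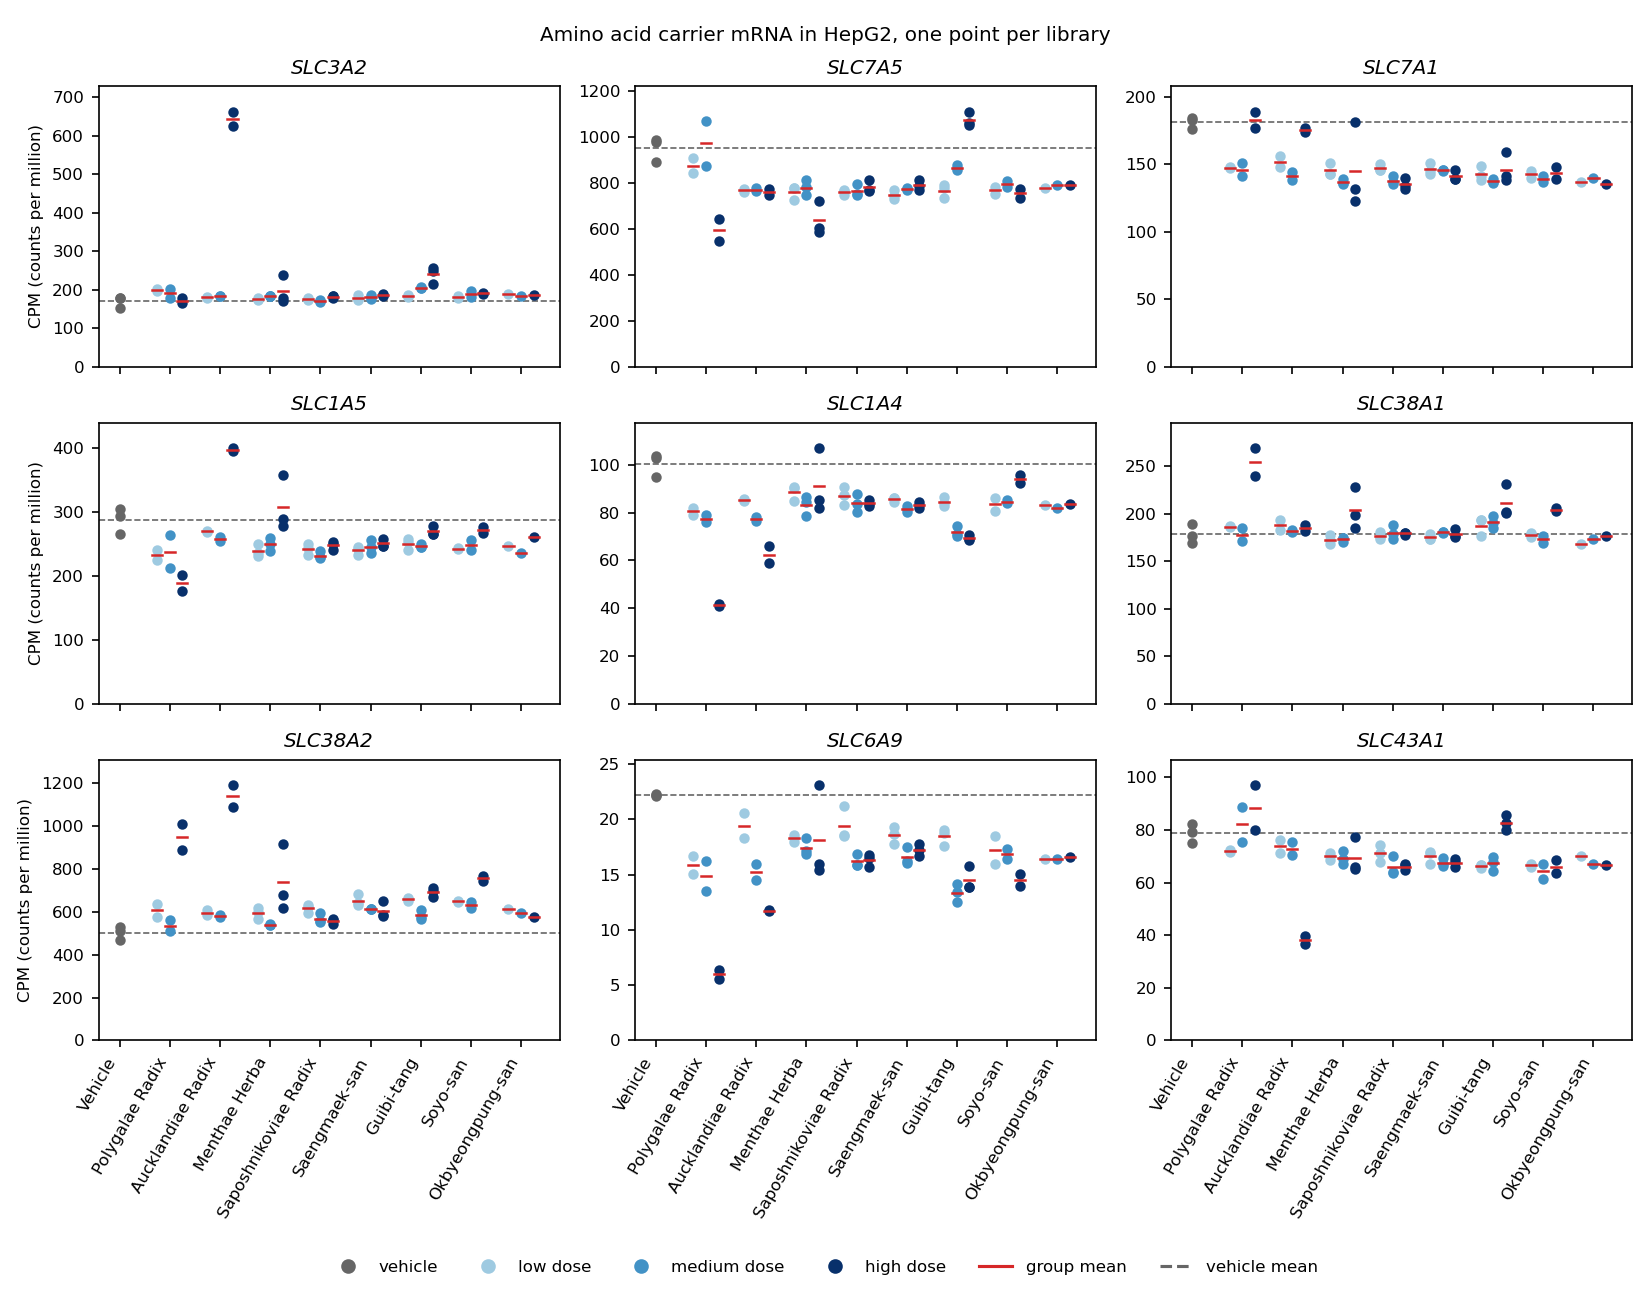
CPM of each carrier in all 60 libraries, by extract and dose, with 1 point per library, the group mean as a red line and the vehicle mean as a dashed line; each panel has its own axis from 0. SLC3A2 of the 2 high-dose Aucklandiae Radix libraries sits at 626 and 663 CPM, above every other library, and the 2 high-dose Polygalae Radix libraries hold the lowest SLC1A4 and SLC6A9.

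Comparing the top dose with the bottom dose within each extract, the edgeR quasi-likelihood test with Benjamini-Hochberg adjustment called 26 of 63 tests of a carrier at an adjusted p under 0.05, 15 higher and 11 lower. With Polygalae Radix 4 carriers rose and 5 fell, where 64.1% of all tested genes were called. With Aucklandiae Radix 4 rose and 3 fell, where 69.4% of genes were called. Guibi-tang gave 4 higher and 2 lower against 34.3% of genes, and Menthae Herba 3 higher and 1 lower against 23.3%. With most genes called in the first pair of herbs, the counts there say little about the carriers, and the values of each follow by role. Aucklandiae Radix also changed broad features of its libraries: mitochondrially encoded genes held 8.02% to 8.17% of counts at the high dose and 12.4% to 14% at the low dose. The summed hepatocyte markers were 24400 to 25300 CPM there at the high dose and 48300 to 49200 at the low dose. With Polygalae Radix the mitochondrial share moved the other way, from 12% to 12.9% at the low to 17.5% to 17.7% at the high dose, and the markers were 18900 to 23100 CPM at the high and 48800 to 50600 at the low dose. The summed markers were also lower at the high dose of Menthae Herba (25000 to 28100 against 51300 to 53500 CPM) and of Guibi-tang (38700 to 40400 against 50700 to 51800 CPM). Among the 10 markers APOB had the widest range, 6340 to 29100 CPM over all libraries, and so weighs heavily in these sums. With Menthae Herba, without replicate 1 of the high dose, APOB differed by -1.99. The other called markers differed by -0.62 to -0.29, and TTR (-0.02) and HNF4A (-0.13) were not called. The trend of counts with GC content also differed, at -0.122 to -0.095 log2 per 10 points of GC for the high dose of Aucklandiae Radix and at -0.088 and 0.13 for the 2 high-dose libraries of Polygalae Radix. The part of these shifts in the carriers' values was not tested.

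**Figure D3:**
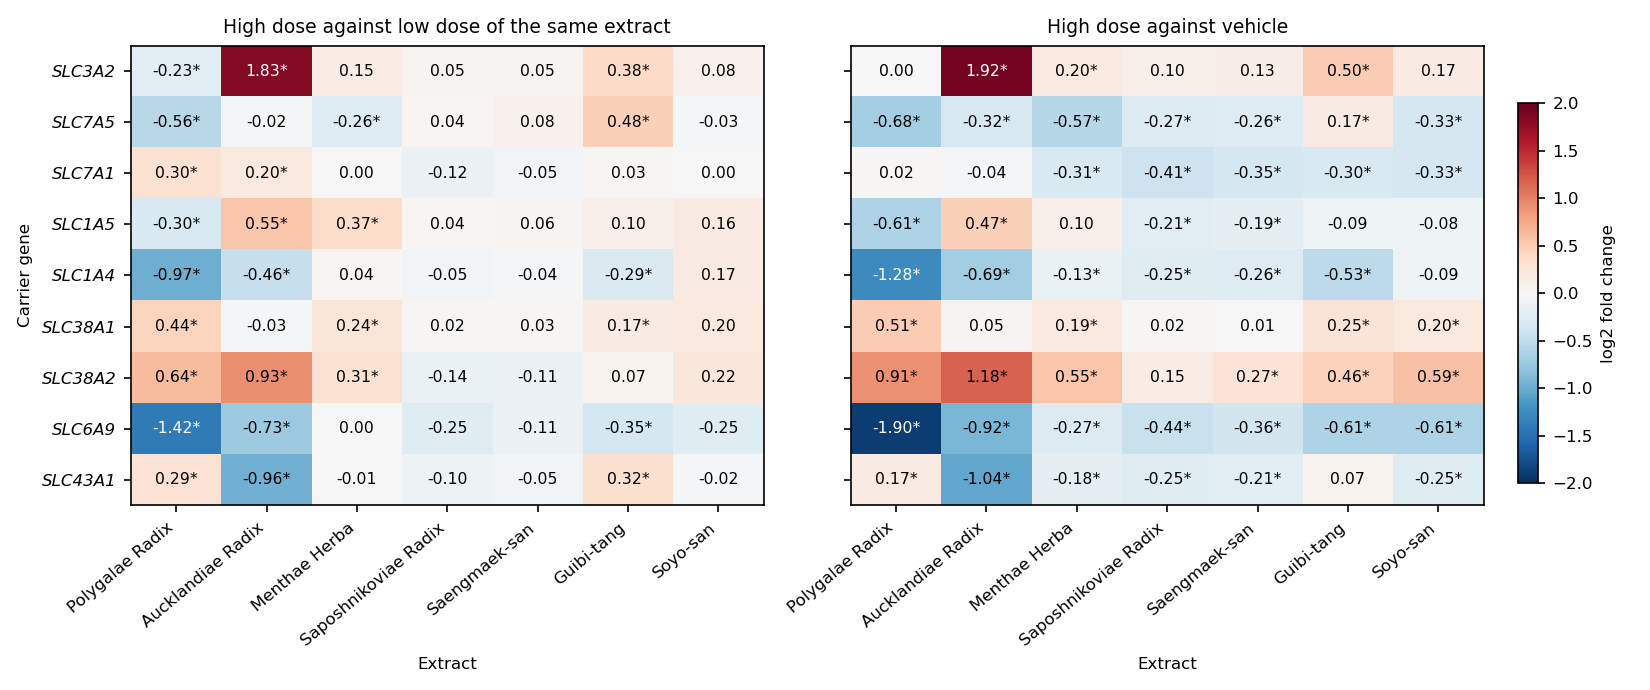
Log2 fold changes of the 9 carriers (rows) in 7 extracts (columns), for the high against the low dose within an extract (left) and against vehicle (right), from the edgeR fit; red is higher and blue is lower, and a star marks an adjusted p under 0.05. SLC3A2 with Aucklandiae Radix (1.83) and SLC6A9 with Polygalae Radix (-1.42) are the extremes of the left panel.

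The heavy chain and its main partner parted ways. SLC3A2 (ENSG00000168003, chr11:62856102-62888875, plus strand, GENCODE 29 on GRCh38) was at 663 and 626 CPM in the 2 high-dose Aucklandiae Radix libraries and at 182 and 179 CPM in the 2 low-dose ones. The groups did not overlap, and no other library in the series passed 257 CPM. The rise was 1.83 ± 0.08 on the log2 scale (SE, n = 2 and 2, edgeR adjusted p = 1.28e-24), a 3.56-fold increase. SLC7A5 (ENSG00000103257, chr16:87830023-87869488, minus strand), the light chain that carries leucine, was at 773 and 748 CPM in the same high-dose libraries and at 761 and 773 CPM at the low dose. These groups overlapped, and the difference was -0.02 with a 95% interval of -0.16 to 0.12 (edgeR adjusted p = 0.849). After removal of a trend with GC content it became 0.19 (edgeR adjusted p = 0.00363). SLC7A5 has near copies elsewhere in the genome, such as the pseudogene SLC7A5P2, so its estimated counts may be shared with them. A second light chain, SLC7A11, the cystine and glutamate exchanger that feeds glutathione synthesis, did rise with Aucklandiae Radix, from a mean of 56.2 to 332 CPM (2.56 ± 0.17, edgeR adjusted p = 2.45e-18). SLC7A7, a light chain for cationic and neutral amino acids, rose by 1.83 ± 0.25 (edgeR adjusted p = 1.87e-08) from a mean of only 0.897 CPM to 3.21 CPM, and SLC7A6, its close relative, by 0.17 ± 0.06 (edgeR adjusted p = 0.00742).

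With Guibi-tang the heavy and the light chain rose together. SLC3A2 was at 248, 216 and 257 CPM in the 3 high-dose libraries and at 181, 186 and 184 CPM in the low-dose ones. SLC7A5 was at 1060, 1110 and 1050 CPM against 791, 732 and 776 CPM. Neither gene's groups overlapped, and the high-dose mean of SLC7A5, 1070 ± 30.5 CPM (SD, n = 3), was the highest group mean of the series. SLC3A2 rose by 0.38 ± 0.06 (edgeR adjusted p = 4.29e-06) and SLC7A5 by 0.48 ± 0.06 (edgeR adjusted p = 2.43e-09). At the medium dose SLC3A2 was at 204 to 207 CPM and SLC7A5 at 854 to 878 CPM, between the low and the high dose, but edgeR called neither against the low dose. SLC7A11 and SLC7A7 rose here too, by 0.45 ± 0.14 and 1.15 ± 0.22 (edgeR adjusted p = 0.00946 and 5.61e-05).

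With Polygalae Radix both chains fell. SLC7A5 was at 643 and 548 CPM at the high dose and at 907 and 843 CPM at the low dose, groups that did not overlap. It fell by 0.56 on the log2 scale (SE 0.07, edgeR adjusted p = 1.81e-09). SLC3A2 was at 178 and 165 CPM against 203 and 198 CPM and fell by 0.23 (SE 0.08, edgeR adjusted p = 0.0101). That small fall did not hold: without replicate 3 of the high dose, or after removal of the GC trend, it was no longer called, with values of -0.29 to -0.08 over the 13 alternatives and a highest edgeR adjusted p of 0.363. The high-dose mean of SLC3A2 was 172 CPM, beside 171 CPM in vehicle. SLC7A11 did not pass the test with this extract, at 59.9 CPM against 47.3 CPM.

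SLC43A1 and its relative SLC43A2, both carriers of leucine that need no heavy chain, moved in opposite directions with Aucklandiae Radix. SLC43A1 (ENSG00000149150, chr11:57484534-57515786, minus strand) was at 36.7 and 39.6 CPM at the high dose and at 76.3 and 71.4 CPM at the low dose. These are the 2 lowest values among the 60 libraries, and the groups did not overlap. It fell by 0.96 (SE 0.08, edgeR adjusted p = 1.97e-15), while SLC43A2 rose from a mean of 25.0 to 90.1 CPM (1.85 ± 0.08, edgeR adjusted p = 3.39e-24). With Guibi-tang SLC43A1 instead rose, from 65.4, 66.5 and 66.8 CPM to 82.6, 79.9 and 85.5 CPM, with no overlap (0.32 ± 0.06, edgeR adjusted p = 2.13e-05). With Polygalae Radix it had a mean of 88.5 ± 12.1 CPM (SD, n = 2) against 71.6 and 72.5 CPM in the low-dose libraries, a rise of 0.29 ± 0.07 (edgeR adjusted p = 3.85e-04). That call rests on the library at 97.0 CPM, replicate 2, without which the value was 0.14 (edgeR adjusted p = 0.131).

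SLC38A1 and SLC38A2 each rose with 3 extracts against the low dose, Polygalae Radix and Menthae Herba for both, but the call of SLC38A2 with Menthae Herba was lost without replicate 1 of its high dose (0.13, edgeR adjusted p = 0.0812), while that of SLC38A1 was not (0.16, edgeR adjusted p = 0.022). SLC38A2 (ENSG00000134294, chr12:46358189-46372867, minus strand), the sodium-coupled glutamine and alanine carrier, was at 1190 and 1090 CPM at the high dose of Aucklandiae Radix and at 609 and 584 CPM at the low dose. With Polygalae Radix it was at 889 and 1010 CPM against 636 and 577 CPM. Both high-dose groups stood above all their low-dose libraries. The rise was 0.93 ± 0.09 with Aucklandiae Radix (edgeR adjusted p = 3.99e-13) and 0.64 ± 0.09 with Polygalae Radix (edgeR adjusted p = 1.39e-08). With Guibi-tang the 3 high-dose libraries, at 667, 696 and 713 CPM, lay just above the low-dose ones, at 649, 664 and 660 CPM. That difference of 0.07, with a 95% interval of -0.07 to 0.21, did not pass the test (edgeR adjusted p = 0.496).

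SLC38A1 (ENSG00000111371, chr12:46183063-46270017, minus strand), a neighbour of SLC38A2 on chromosome 12 with a like substrate range, did not follow it with Aucklandiae Radix. It was at 182 and 188 CPM at the high dose and at 194 and 183 CPM at the low dose, and these groups overlapped (-0.03, 95% interval -0.16 to 0.09, edgeR adjusted p = 0.648). With Polygalae Radix it was at 240 and 269 CPM, the highest group mean of the series, against 187 and 186 CPM. It rose there by 0.44 ± 0.06 (edgeR adjusted p = 4.97e-08). With Guibi-tang it was at 201, 231 and 202 CPM against 177, 193 and 193 CPM (0.17 ± 0.05, edgeR adjusted p = 0.00933). This last call was lost in 3 of 15 alternatives: without replicate 2 of the high dose, without replicate 1 of the low dose, and in a fit of only the 2 groups, with values of 0.10 to 0.20 over all 15.

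SLC1A5 and SLC1A4, related exchangers of small neutral amino acids, split with Aucklandiae Radix. SLC1A5 (ENSG00000105281, chr19:46774883-46788594, minus strand), the glutamine exchanger, was at 399 and 395 CPM at the high dose and at 269 and 270 CPM at the low dose. SLC1A4 (ENSG00000115902, chr2:64988477-65023865, plus strand), which prefers alanine, serine and cysteine, was at 65.9 and 58.8 CPM against 85.9 and 84.9 CPM. Neither overlapped between doses, the first being higher and the second lower. SLC1A5 rose by 0.55 ± 0.07 (edgeR adjusted p = 9.27e-09) and SLC1A4 fell by 0.46 (SE 0.07, edgeR adjusted p = 1.09e-07). With Polygalae Radix both fell: SLC1A5 was at 201 and 176 CPM against 240 and 224 CPM, and SLC1A4 at 41.8 and 40.8 CPM against 82.1 and 79.0 CPM. Those 2 values of SLC1A4 are the lowest of the series, and its fall of 0.97 (SE 0.07, edgeR adjusted p = 2.15e-16) exceeded that of SLC1A5, 0.30 (SE 0.08, edgeR adjusted p = 5.55e-04). SLC1A5 overlaps a gene on the opposite strand, and the strand setting of the counting is not given in the sources used here, so its values may hold some reads of that neighbour.

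SLC6A9 and SLC1A4 were lower at the high dose in the same 3 extracts, Polygalae Radix, Aucklandiae Radix and Guibi-tang. SLC6A9 (ENSG00000196517, chr1:43991500-44031467, minus strand), the glycine carrier, was at 5.57 and 6.38 CPM at the high dose of Polygalae Radix and at 16.7 and 15.1 CPM at the low dose. With Aucklandiae Radix it was at 11.8 and 11.7 CPM against 20.6 and 18.3 CPM. These 4 libraries hold the 4 lowest values of SLC6A9 in the series. The medium dose of Guibi-tang had 12.5 to 14.2 CPM. The fall of SLC6A9 was 2.67-fold with Polygalae Radix (-1.42 ± 0.13, edgeR adjusted p = 1.54e-13) and 1.66-fold with Aucklandiae Radix (-0.73 ± 0.11, edgeR adjusted p = 2.18e-07). With Guibi-tang both genes were already lower at the medium dose than at the low dose, the only 2 of 63 such tests that edgeR called: SLC1A4 by -0.23 ± 0.06 (adjusted p = 0.00911) and SLC6A9 by -0.46 ± 0.09 (adjusted p = 0.00119), where 3.60% of genes were called. In the other 6 extracts no carrier was called by edgeR at the medium dose, where 8.41% of genes were called with Polygalae Radix, 4.35% with Aucklandiae Radix, 0.118% with Menthae Herba, 0.0118% with Saposhnikoviae Radix, 0.00589% with Soyo-san and 0% with Saengmaek-san. SLC1A4 was at 74.4, 70.4 and 71.2 CPM at the medium dose, at 69.2, 70.5 and 68.7 CPM at the high dose and at 84.3, 82.7 and 86.5 CPM at the low dose. Its medium and high doses thus lay level, below all 3 low-dose libraries. Against the low dose of Guibi-tang, the high dose differed by -0.29 ± 0.06 for SLC1A4 (edgeR adjusted p = 5.22e-05) and by -0.35 ± 0.09 for SLC6A9 (edgeR adjusted p = 0.00197). SLC6A9 also overlaps a gene on the opposite strand.

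SLC7A1 (ENSG00000139514, chr13:29509410-29595688, minus strand), the arginine carrier, spanned the least over the groups. It was at 189 and 177 CPM at the high dose of Polygalae Radix against 147 and 148 CPM, and at 174 and 177 CPM at the high dose of Aucklandiae Radix against 156 and 148 CPM. In both extracts the high dose lay above the low dose without overlap. It rose by 0.30 ± 0.08 with Polygalae Radix (edgeR adjusted p = 9.22e-04) and by 0.20 ± 0.08 with Aucklandiae Radix (edgeR adjusted p = 0.0218). The second call was lost without replicate 3 of either dose (edgeR adjusted p up to 0.172). The high-dose means of 183 and 175 CPM lay near the vehicle mean of 181 CPM. With all libraries and no GC correction, edgeR called SLC7A1 higher than vehicle at no high dose. SLC7A2, the second arginine carrier, fell with Aucklandiae Radix from 127 to 59.7 CPM (-1.10 ± 0.08, edgeR adjusted p = 8.19e-17) and rose with Polygalae Radix from 124 to 161 CPM (0.36 ± 0.07, edgeR adjusted p = 4.14e-05).

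With Menthae Herba the carriers' values depended on 1 library. SLC38A2 was at 917, 678 and 618 CPM in replicates 1, 2 and 3 of the high dose and at 564, 598 and 616 CPM at the low dose. SLC1A5 was at 357, 277 and 288 CPM against 235, 249 and 230 CPM, and SLC7A5 at 723, 604 and 588 CPM against 779, 779 and 727 CPM. Replicate 1 stands above the other two in each, and for these 3 genes the dose groups did not overlap with all libraries in. With all libraries SLC38A2 differed by 0.31 ± 0.07 (edgeR adjusted p = 6.92e-04), SLC1A5 by 0.37 ± 0.06 (edgeR adjusted p = 7.61e-06), SLC38A1 by 0.24 ± 0.05 (edgeR adjusted p = 4.72e-04) and SLC7A5 by -0.26 ± 0.06 (edgeR adjusted p = 4.93e-04). Without replicate 1, a choice made after seeing the data, SLC38A2 was no longer called (0.13, edgeR adjusted p = 0.0812), SLC1A5 differed by 0.25 and SLC38A1 by 0.16, and SLC7A5 by -0.35. SLC7A1 and SLC6A9, at 0.00 with all libraries, were then lower and called (-0.19 and -0.22, edgeR adjusted p = 0.00222 and 0.0329). The count then was 2 higher and 3 lower, against 20.9% of all genes.

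The dose responses of the 2 herbs of the first set were set against each other, each over a 25-fold range of its own doses, which differed (280 against 250 ug/mL at the top). The difference, Aucklandiae Radix minus Polygalae Radix, was called by edgeR for 8 of 9 carriers, against 60.1% of all genes. The widest gap was that of SLC3A2, with 2.06 ± 0.11 (edgeR adjusted p = 9.61e-21), and the widest in the other direction that of SLC43A1, with -1.25 ± 0.10 (edgeR adjusted p = 1.77e-14). SLC1A5, which rose with one herb and fell with the other, differed by 0.85 ± 0.11 (edgeR adjusted p = 1.87e-09). SLC7A1 was the exception, with -0.10 and a 95% interval of -0.33 to 0.13. SLC38A2, which rose with both, differed by 0.29 ± 0.12 (edgeR adjusted p = 0.0353), and this call was lost in 6 alternatives.

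**Figure D4:**
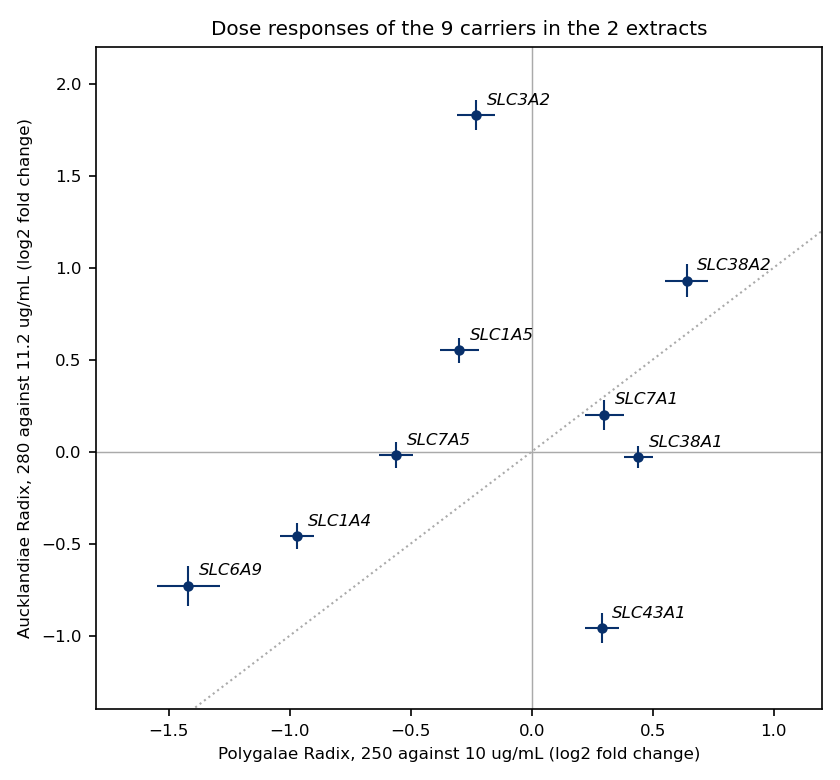
Log2 fold change of the high against the low dose with Polygalae Radix (horizontal axis) and with Aucklandiae Radix (vertical axis) for the 9 carriers; bars are standard errors (n = 2 libraries per dose) and the dotted line marks equal change. SLC3A2 (1.83 with Aucklandiae Radix, -0.23 with Polygalae Radix) and SLC1A5 (0.55 and -0.30) lie at the upper left and SLC43A1 (-0.96 and 0.29) at the lower right; the Polygalae Radix values of SLC3A2 and SLC43A1 lost their calls in some alternatives.

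At a matched dose of 500 ug/mL, Guibi-tang and Saengmaek-san, the 2 decoctions of another set, differed in 7 of 9 carriers by edgeR, against 33.8% of all genes. SLC7A5 was at 1060, 1110 and 1050 CPM with Guibi-tang and at 813, 768 and 787 CPM with Saengmaek-san (0.44 ± 0.06, edgeR adjusted p = 2.43e-08). SLC3A2, SLC43A1, SLC38A1 and SLC38A2 were also higher with Guibi-tang, by 0.37, 0.29, 0.24 and 0.19, and SLC1A4 and SLC6A9 were lower, by -0.26 and -0.25. SLC7A1 differed by 0.05, with an interval of -0.09 to 0.18, and SLC1A5 by 0.10, with an interval of -0.02 to 0.23. Menthae Herba against Saposhnikoviae Radix at 500 ug/mL gave 4 called carriers of 9, against 21.2% of genes: SLC7A5 by -0.30, SLC1A5 by 0.31, SLC38A1 by 0.18 and SLC38A2 by 0.40. Without replicate 1 of Menthae Herba these were -0.39, 0.20, 0.10 and 0.23, and SLC38A1 was not called (edgeR adjusted p = 0.174). The dose responses of the same pairs differed by edgeR for 4 carriers between Guibi-tang and Saengmaek-san (SLC3A2, SLC7A5, SLC43A1 and SLC1A4), against 19.6% of all genes, and for 3 between Menthae Herba and Saposhnikoviae Radix (SLC7A5, SLC1A5 and SLC38A2), against 10.6%. Without replicate 1 of Menthae Herba the difference in SLC1A5 was no longer called (edgeR adjusted p = 0.0732), and that in SLC38A2 went from 0.46 to 0.28 (edgeR adjusted p = 0.0078).

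Saposhnikoviae Radix, Saengmaek-san and Soyo-san gave no called carrier by edgeR when the 2 outer doses were compared, where 0.830%, 0.436% and 3.95% of all genes were called. At an unadjusted p under 0.05 the counts were 2, 0 and 5, and by DESeq2 they were 0, 0 and 1. The 9 differences lay between -0.25 and 0.05 with Saposhnikoviae Radix and between -0.11 and 0.08 with Saengmaek-san. With Soyo-san SLC38A1 was at 206 and 203 CPM against 180 and 176 CPM, and SLC38A2 at 768 and 743 CPM against 647 and 649 CPM. Neither pair of groups overlapped, and neither passed (0.20 with an edgeR adjusted p of 0.0777, and 0.22 with an edgeR adjusted p of 0.193). Okbyeongpung-san had 1 library per dose and no test. Its high and low doses differed by -0.09 (SLC38A2, 577 against 614 CPM) to 0.08 log2 CPM over the 9 carriers, and 12.1% of all genes differed there by at least 0.5. Against the vehicle mean its high dose was at -0.42 for both SLC7A1 and SLC6A9, and 17.3% of genes differed by at least 0.5.

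Against vehicle, several carriers were already displaced at the low dose. SLC7A1 was at 176, 183 and 184 CPM in vehicle, and the 19 low-dose libraries of the 8 extracts ran from 137 to 156 CPM with a median of 146. SLC38A2 was at 528, 470 and 512 CPM in vehicle and at 564 to 685 CPM in the low-dose libraries, with a median of 632. SLC1A4 was at 94.8, 103 and 104 CPM against 79.0 to 90.9 CPM, with a median of 85.1. All 19 low-dose libraries lay below vehicle in SLC7A1, SLC1A4 and SLC6A9 and above it in SLC38A2. In SLC7A5 and SLC43A1 18 of the 19 lay below all vehicle libraries, and in SLC1A5 17. SLC3A2 had 9 above and 0 below, and SLC38A1 3 above and 2 below. The share of all genes separated in this way was not counted. By edgeR SLC7A1 and SLC1A4 were lower than vehicle at the low dose of 7 of 7 tested extracts, by -0.33 to -0.25 and by -0.31 to -0.17, and SLC38A2 was higher in 7 of 7, by 0.24 to 0.39. SLC7A5 and SLC1A5 were lower in 6 of 7, SLC6A9 in 5 and SLC43A1 in 4. In these comparisons 36.1% of all genes were called with Polygalae Radix, 33.3% with Aucklandiae Radix, 38.0% with Menthae Herba and 37.6% with Saposhnikoviae Radix. The shares were 38.7% with Saengmaek-san, 40.1% with Guibi-tang and 34.2% with Soyo-san. All of them share the 3 vehicle libraries, which also differed in the trend of counts with GC content (0.096 to 0.227 log2 per 10 points of GC, against -0.043 to 0.031 in the low-dose libraries) and in the mitochondrial share (15.8% to 19.1%, against 10.1% to 14.3%), so these low-dose differences cannot be told apart from the vehicle set.

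At the high dose against vehicle the largest values were those of the 2 herbs already described. SLC3A2 rose by 1.92 ± 0.07 with Aucklandiae Radix (edgeR adjusted p = 1.24e-27), and SLC6A9 fell by 1.90 (SE 0.12) with Polygalae Radix (edgeR adjusted p = 3.56e-19). Counted over the 9 carriers, edgeR called 3 higher and 4 lower with each of these herbs, where 73.3% of genes were called with Aucklandiae Radix and 66.9% with Polygalae Radix. Guibi-tang gave 4 higher and 3 lower (51.0% of genes) and Menthae Herba 3 higher and 5 lower (48.2%). Without replicate 1 of its high dose Menthae Herba gave 1 higher, SLC38A2, and 5 lower (44.0% of genes), since SLC3A2 (0.03, edgeR adjusted p = 0.705) and SLC38A1 (0.10, edgeR adjusted p = 0.0979) were no longer called. Saposhnikoviae Radix gave 0 higher and 6 lower (40.1%), Saengmaek-san 1 higher and 6 lower (40.5%), and Soyo-san 2 higher and 4 lower (38.8%). Relative to vehicle, SLC6A9 was lower with 7 of 7 extracts at this dose, and SLC38A2 higher with 6. With the GC trend removed, SLC6A9 was no longer called with Menthae Herba, Saposhnikoviae Radix or Saengmaek-san, nor SLC38A2 with Saengmaek-san. The Menthae Herba call of SLC6A9 was also lost with only the 2 groups fitted, and without replicate 2 or 3 of its high dose. With the same herb, the lower call of SLC1A4 (-0.13) was lost in 8 of 15 alternatives and changed sign in 1 more. That of SLC43A1 (-0.18) was lost in 5 and changed sign in 2 more. The SLC6A9 calls with Polygalae Radix, Aucklandiae Radix, Guibi-tang and Soyo-san held in every alternative. With the mean of the 7 low-dose groups in place of vehicle, Saposhnikoviae Radix and Saengmaek-san had 0 calls of 9, Soyo-san 3 and Menthae Herba 4. With the GC trend removed the counts were 4 for Saengmaek-san and 5 for Menthae Herba, which also had 5 without replicate 3 of its high dose.

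The wider set of plasma membrane amino acid carriers, 24 further genes of which 17 were tested, also went both ways. With Aucklandiae Radix 8 rose and 8 fell between low and high dose, with a median of 0.17, where the median of all genes was -0.02. The share of all genes called was 69.4% there, 64.1% with Polygalae Radix, 34.3% with Guibi-tang and 23.3% with Menthae Herba. SLC7A11 (2.56) and SLC43A2 (1.85) were its highest called members and SLC6A14, a broad neutral and cationic carrier (-4.91), and SLC38A4 (-2.57) its lowest. With Polygalae Radix 3 rose and 9 fell, with a median of -0.25. The liver glutamine carrier SLC38A3 fell from 98.3 to 48.1 CPM with Aucklandiae Radix (-1.03 ± 0.08) and from 94.0 to 39.1 CPM with Polygalae Radix (-1.27 ± 0.08), and SLC38A5 fell in both too (-0.95 and -0.33). With Guibi-tang 6 rose and 6 fell, and with Menthae Herba 1 rose, SLC7A11 by 1.12 ± 0.14 (0.68 ± 0.08 without replicate 1), and 9 fell (8 without it). SLC6A6, the taurine carrier, rose from 67.9 to 178 CPM with Aucklandiae Radix and from 63.4 to 95.2 CPM with Guibi-tang, and SLC36A1, a proton-coupled carrier also found on lysosomes, rose with Aucklandiae Radix (0.94), Polygalae Radix (0.53) and Guibi-tang (0.36). SLC7A8 and SLC1A1 did not pass the filter.

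ATF4 itself and the genes that it is known to drive, together 23 on the list and 21 tested, moved apart between the 2 herbs. With Aucklandiae Radix 16 rose and 5 fell, with a median of 0.91, where 69.4% of all genes were called. ASNS, which makes asparagine, went from 44.2 to 206 CPM (2.21 ± 0.10, edgeR adjusted p = 8.72e-25) and SESN2, a leucine sensor, from 20.4 to 118 CPM (2.53 ± 0.15). The 5 that fell, named after their values were seen, were SHMT2 (-1.65), PCK2 (-1.45), PSPH (-1.22), PHGDH (-0.95) and PSAT1 (-0.21), while MTHFD2 (0.45) and ALDH1L2 (0.57), which like SHMT2 act in one-carbon metabolism, rose. With Polygalae Radix 5 rose and 11 fell, with a median of -0.35, where 64.1% of all genes were called, and ASNS went from 31.6 to 6.66 CPM (-2.25 ± 0.13, edgeR adjusted p = 8.92e-20). ATF4 mRNA itself, which is included in these counts, rose with both, by 0.46 and 0.45 (SE 0.07 each). It also rose with Menthae Herba, by 0.50 ± 0.06, and fell with Guibi-tang (-0.37 ± 0.06). With Menthae Herba 16 of the 21 rose and 0 fell (11 and 0 without replicate 1), where 23.3% of all genes were called (20.9% without it), with DDIT4 highest at 1.78 ± 0.21 (1.13 ± 0.15 without it). With Guibi-tang 1 rose, NUPR1 (1.08), and 8 fell, where 34.3% of all genes were called. TRIB3, which restrains ATF4, rose with Aucklandiae Radix (0.94 ± 0.10) and fell with Polygalae Radix (-0.35 ± 0.10), and CHAC1 did not pass the filter.

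The genes that use the imported amino acids came next. Shares of all genes called were 64.1% with Polygalae Radix, 69.4% with Aucklandiae Radix, 23.3% with Menthae Herba and 34.3% with Guibi-tang. All 20 cytosolic aminoacyl-tRNA synthetases on the list fell with Polygalae Radix, with a median of -1.06, from FARSA at -0.34 to EPRS1, which charges glutamate and proline, at -3.02 ± 0.06 (198 to 24.5 CPM). With Aucklandiae Radix 8 rose and 11 fell, from TARS1 at 1.17 to FARSB at -1.31. With Menthae Herba 18 rose and 0 fell, with a median of 0.22, and the same counts were found without replicate 1. With Guibi-tang 2 rose and 9 fell. Of 20 enzymes and regulators that act on these amino acids, 14 fell and 5 rose with Aucklandiae Radix (median -0.78), and 16 fell and 3 rose with Polygalae Radix (median -1.21). GLUL, the glutamine synthetase, fell with both (-0.38 and -0.61, SE 0.04 each). ODC1, the first enzyme from ornithine to polyamines, rose with Aucklandiae Radix, Polygalae Radix, Guibi-tang and Menthae Herba, by 0.84, 0.57, 0.27 and 0.26. MYC, a regulator of several carriers, rose with Polygalae Radix from 169 to 455 CPM (1.42 ± 0.06, edgeR adjusted p = 6.08e-26), and did not pass with Aucklandiae Radix (0.10 ± 0.06).

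Downstream of uptake, the amino acid sensing genes of mTORC1, 21 on the list, gave 10 higher and 5 lower with Aucklandiae Radix, 5 and 7 with Polygalae Radix, 8 and 1 with Guibi-tang and 0 and 1 with Menthae Herba. For the first pair, 15 and 12 of 21 called stand beside 69.4% and 64.1% of all genes, near the background, and for the others 34.3% and 23.3% of all genes were called. RRAGC (2.12) and LAMTOR3 (1.67), parts of the lysosomal platform that recruits the kinase, were the highest called members with Aucklandiae Radix, and RRAGD (1.13) and FLCN (0.77) with Guibi-tang. Of 12 lysosomal and intracellular amino acid carriers 8 rose and 4 fell with Aucklandiae Radix and 6 rose and 0 fell with Guibi-tang. CTNS, the lysosomal cystine exporter, rose in both (0.94 and 0.77). With Polygalae Radix SLC38A9, the lysosomal arginine sensor, fell by 0.87 (SE 0.10, edgeR adjusted p = 1.01e-10). These lists were chosen with earlier results known, so their counts are descriptions.

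Across the 22 fitted groups, SLC1A4 and SLC6A9 had the closest patterns of any 2 carriers, with a Pearson r of 0.94 between their mean log2 CPM. SLC3A2 ran with SLC1A5 (0.76) and SLC38A2 (0.69) and against SLC43A1 (-0.79), and had an r of 0.09 with its light chain SLC7A5. Among 10674 genes of at least 5 CPM that are not carriers on the list, the closest to SLC3A2 were SPAG9 (0.99), SWAP70 (0.98) and PLEKHB2 (0.98). The closest to SLC7A5 were NEU1 (0.89), PLBD2 (0.86) and CTSA (0.85), all of which encode lysosomal proteins. GPT2, DAP and AK1 (0.97 each) were closest to SLC1A4, and NR5A1 and YIPF2 (0.96 each) to SLC6A9. CNST and SLC4A7 (0.96 each) were closest to SLC38A2, NSFL1C (0.95) to SLC1A5, DHRSX and RGS12 (0.96 each) to SLC43A1, DMWD (0.94) to SLC7A1 and ARIH2 (0.93) to SLC38A1. These correlations are over groups that share vehicle, set and line, and a few high-dose groups carry most of the spread, so they describe these 22 groups and no more.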

How the data were processed

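RNA of HepG2 cells was measured in 60 libraries in 25 groups, read from the labels. Per the submitters' processing notes, reads passed through FastQC 0.11.9, Trim Galore 0.6.5, STAR 2.7.3a and RSEM 1.3.3 on GRCh38. Per the labels' protocols the library kit was directional. For the annotation release and the strand setting of the counting the entry is: not given in the sources used here. The deposited values are the authors' expected counts per gene, estimated by RSEM and not normalized. Of the values 9.97% were not whole, and all were rounded. Of the 60675 IDs 57055 matched GENCODE 29, the source of symbols, positions, exon lengths and GC content, and other IDs held 0.046% of counts. All columns had a sample. No 2 libraries of a group agreed within sampling noise (chi-square per gene at least 1.79).

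The test was edgeR's quasi-likelihood test (edgeR 4.0.16, R 4.3.3) after TMM scaling and filterByExpr (minimum count 10), on 57 libraries in 22 groups with 35 residual degrees of freedom and 16982 genes. The fit left out Okbyeongpung-san (1 library per dose). Benjamini-Hochberg adjustment ran over all genes in each contrast, with calls under 0.05. Printed CPM were scaled by TMM over 60 libraries, log2 CPM used a prior count of 2, and fold changes are those of the fit, with SE from its F statistic. The script was tested on simulated data. Alternatives were DESeq2 1.42.0, RLE scaling, other filters, removal of a GC trend (GC known for 99.3% of tested genes), a fit of only the 2 groups, the mean low dose in place of vehicle, the replicate number as a block and leaving out each library. Leaving out replicate 1 of the high dose of Menthae Herba for matched doses, list counts and list genes was added after seeing the data. All 9 carriers, a fixed set of other pathway genes and, per list, up to 2 highest and 2 lowest called members were named, and the 3 genes most like a carrier were found. One gene of that fixed set is not reported here. The members and lists were chosen with earlier results of these data known.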

Additional observations from a re-analysis of the deposited data

Results flagged for a closer look

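Between the 2 herbs of the first set the dose response, high minus low dose, differed by edgeR for 8 carriers, where 60.1% of all genes were called (Aucklandiae Radix minus Polygalae Radix, log2 scale, n = 2 per dose). The differences were 2.06 for SLC3A2, 0.85 for SLC1A5, 0.68 for SLC6A9, 0.55 for SLC7A5, 0.51 for SLC1A4, 0.29 for SLC38A2, -0.47 for SLC38A1 and -1.25 for SLC43A1. SLC6A9 and SLC1A4 fell with both herbs, further with Polygalae Radix, while SLC1A5 rose with one and fell with the other. SLC3A2 rose with Aucklandiae Radix, and its fall with Polygalae Radix was lost in 3 of 13 settings. The value of SLC38A2 was not called in 6 of 13 settings. Menthae Herba minus Saposhnikoviae Radix gave 0.46 for SLC38A2, 0.33 for SLC1A5 and -0.30 for SLC7A5, where 10.6% of all genes were called. Without replicate 1 of the high dose of Menthae Herba the value of SLC1A5 was not called and that of SLC38A2 was 0.28 (edgeR adjusted p = 0.0078). Guibi-tang minus Saengmaek-san gave 0.40 for SLC7A5, 0.37 for SLC43A1, 0.33 for SLC3A2 and -0.24 for SLC1A4, where 19.6% of genes were called, and the value of SLC1A4 was not called without replicate 3 of the low dose of Guibi-tang.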

How the results depend on the processing

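Of the results for single carriers under other settings, 2069 stayed on the same side of the threshold, 93 lost a call and 47 gained one. Another 23 changed sign and were called before or after the change. Values called in neither setting count among the 2069 even where their sign changed. Counts of called carriers between high and low dose stayed within 1.5 times except with Saposhnikoviae Radix (2 of 9 when only the 2 groups were fitted, against 0) and Soyo-san (3 when only the 2 groups were fitted, 1 without the filter, with the GC trend removed with or without a block, or by DESeq2, against 0). Against vehicle, the count for Menthae Herba (8) became 5 with the GC trend removed, with or without a block, or with only the 2 groups, and 4 against the mean low dose. That for Saengmaek-san (7) became 4 with the GC trend removed, with or without a block, and 0 against the mean low dose, that for Saposhnikoviae Radix (6) became 0 and that for Soyo-san (6) became 3 against the mean low dose. The cause of these changes was not tested. Leaving out 1 library at a time gave 8 to 9 calls for Polygalae Radix, 6 to 7 for Aucklandiae Radix, 4 to 5 for Menthae Herba and 5 to 6 for Guibi-tang between high and low dose, and 5 to 7 for Menthae Herba against vehicle (5 without replicate 3 of the high dose). With the GC trend removed, the value of SLC7A5 with Aucklandiae Radix became 0.19 against the low dose and 0.07 against vehicle (0.08 with the block), that of SLC7A1 against vehicle 0.25 (0.26 with the block, and 0.26 against the mean low dose), that of SLC38A1 against vehicle -0.12 with Aucklandiae Radix, -0.14 with Saposhnikoviae Radix and -0.15 with Saengmaek-san, and that of SLC43A1 against vehicle 0.04 with Menthae Herba. Against the mean low dose, SLC1A4 with Menthae Herba became 0.10 and SLC6A9 0.01, SLC7A5 and SLC1A5 with Saposhnikoviae Radix 0.01 and 0.02, SLC7A5, SLC1A5 and SLC38A2 with Saengmaek-san 0.02, 0.04 and -0.04, and SLC1A5 with Guibi-tang 0.14. A check could not settle whether replicate numbers pair the samples. Correlations of same-numbered libraries between high and low dose ran from -0.11 to 0.23. With 3 replicates not every library matched its own number best. With 2 replicates the deviations from the group mean mirror each other, so a match there says little. With the number as a block, 9, 7, 4 and 6 carriers were called for Polygalae Radix, Aucklandiae Radix, Menthae Herba and, last, Guibi-tang, the same counts as without it.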

Other observations

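In the 3 libraries at the high dose of Menthae Herba, replicate 1 was the highest for 9 of 9 carriers and 15 of 17 further plasma membrane amino acid carriers. Replicate 1 was also the highest for 21 of 21 tested genes on the list of ATF4 and its targets. It was the highest for 35.9% of all tested genes, for 5 of 21 mTORC1 sensing genes and for 5 of 20 enzymes that act on amino acids. For the aminoacyl-tRNA synthetases it was the highest in 12 of 20, and for the lysosomal and intracellular carriers in 8 of 12. Replicate 1 also held the most counts of the 3 libraries, 31.8 M against 25.4 M and 24.3 M. Its values for SLC7A1 (181 CPM, against 132 and 123 CPM in the other two libraries) and SLC6A9 (23.1 CPM, against 15.4 and 16.0 CPM) lay above all low-dose libraries of the same herb, while the other two lay below them. The median of ATF4 and its targets between high and low dose was 0.50 with this library and 0.32 without it, whereas that of the aminoacyl-tRNA synthetases was 0.22 and 0.23.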
